A study of Mus musculus with 18 samples.

Results

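Neutrophils sorted from mouse bone marrow were compared between wild-type (WT) mice and mice whose label is CIS-/-, before any exposure to GM-CSF. The comparison takes the 3 RNA-seq libraries titled WT unstimulated and the 3 titled CIS-/- unstimulated, chosen by title alone, which are 6 of the 18 libraries of the series. All mice were 10 weeks old, and CIS-/- stands for loss of CIS, the protein encoded by Cish. The cells of both groups were sorted by flow cytometry and lysed straight after the sort, with no culture and no added cytokine. The other 12 libraries come from cells of the same 2 genotypes kept with 100 ng/mL GM-CSF for 4 h or 24 h, and they are used here for the shared error estimate and for a closing comparison. Nothing in the labels tells the deleted stretch of Cish, the cells in which it was deleted, the strain background, or whether replicates are separate mice. The p-values therefore measure only the spread between these libraries, which may be technical.

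CIS belongs to the suppressors of cytokine signalling (SOCS), a family of proteins with an SH2 domain and a SOCS box that are induced by JAK-STAT signalling and then restrain it. Its gene is a classical target of STAT5, the factor activated by GM-CSF, IL-3 and related cytokines. Neutrophils are short-lived granulocytes made in the bone marrow, where they pass from dividing, granule-making precursors to mature cells that no longer divide and that carry ready receptors for bacterial products and chemokines.

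The 6 libraries held between 14378755 and 17944849 counted reads, and between 15366 and 15820 genes with at least 1 count. Levels are given as CPM, that is, counts divided by a TMM-adjusted library size, and differences as log2 fold changes of CIS-/- over WT with an approximate standard error (SE). The SE was derived from the test: the size of the log2 fold change divided by the square root of the F statistic. A gene is called higher or lower where the Benjamini-Hochberg adjusted p of edgeR's quasi-likelihood test, over all 11569 genes tested, is under 0.05. The first principal component of the 6 libraries held 81.5% of their variance and put the 2 groups on opposite sides. The neutrophil markers S100a8, S100a9, Ly6g, Csf3r and Cxcr2 were all abundant. Ly6g, for example, stood at 482, 446 and 479 CPM in WT and at 478, 475 and 459.6 CPM in CIS-/-. Reads from the mitochondrial genome made up 0.0659% to 0.0707% of the WT libraries and 0.0565% to 0.0583% of the CIS-/- libraries.

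The targeted gene did not follow its label in the fresh cells. Cish (chromosome 9, 107296026 to 107302784, plus strand, GRCm38) measured 6.48, 6.51 and 6.49 CPM in the 3 WT libraries and 18.2, 20.0 and 17.9 CPM in the 3 libraries labelled CIS-/-. Every library labelled CIS-/- was thus above every WT library, by 1.52 ± 0.08 on the log2 scale (edgeR adjusted p = 4.96e-25). After GM-CSF the order was the other way: at 4 h the WT libraries averaged 1148 CPM and the libraries labelled CIS-/- 240.0 CPM, a log2 fold change of -2.26 ± 0.03, and at 24 h the log2 fold change was -2.16 ± 0.03. The counts are sums over the whole gene, so they do not show whether the transcripts in the libraries labelled CIS-/- were intact. Gm17040, a transcribed pseudogene on the opposite strand that overlaps the start of Cish, was at 0, 0.0672 and 0 CPM in WT and at 3.59, 4.31 and 4.51 CPM in the libraries labelled CIS-/-; it was singled out after its values were seen. The library kit kept strand, but no source here tells whether strand was used in counting, so reads of the 2 overlapping genes cannot be told apart. CIS-/- below means the library label.

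Among all genes tested, 2578 were called, which is 22.3%. Of these, 1489 were higher in CIS-/- (12.9% of genes tested) and 1089 were lower (9.41%). Most differences were small: 202 genes (1.75%) also differed by at least 2-fold, 154 of them higher and 48 lower. Genes with more reads were called more often, from 2.68% of genes under 1 CPM to 41.7% of genes at 100 CPM or more, taking the larger group mean. The counts for gene lists below are to be read beside the shares of 12.9% higher and 9.41% lower over all genes. A list of abundant genes can hold more calls for its level alone. The 2 groups of 3 libraries did not overlap in 4375 genes (37.8%), so the absence of overlap in a single gene is common here. With total library sizes in place of TMM scaling the calls were 1167 higher and 1660 lower, so that 41.3% of calls were higher instead of 57.8%. The median gene stood at -0.01 with TMM and at -0.05 with total library sizes. In these bulk samples fewer cells of a type and less RNA per cell cannot be told apart.

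**Figure D1:**
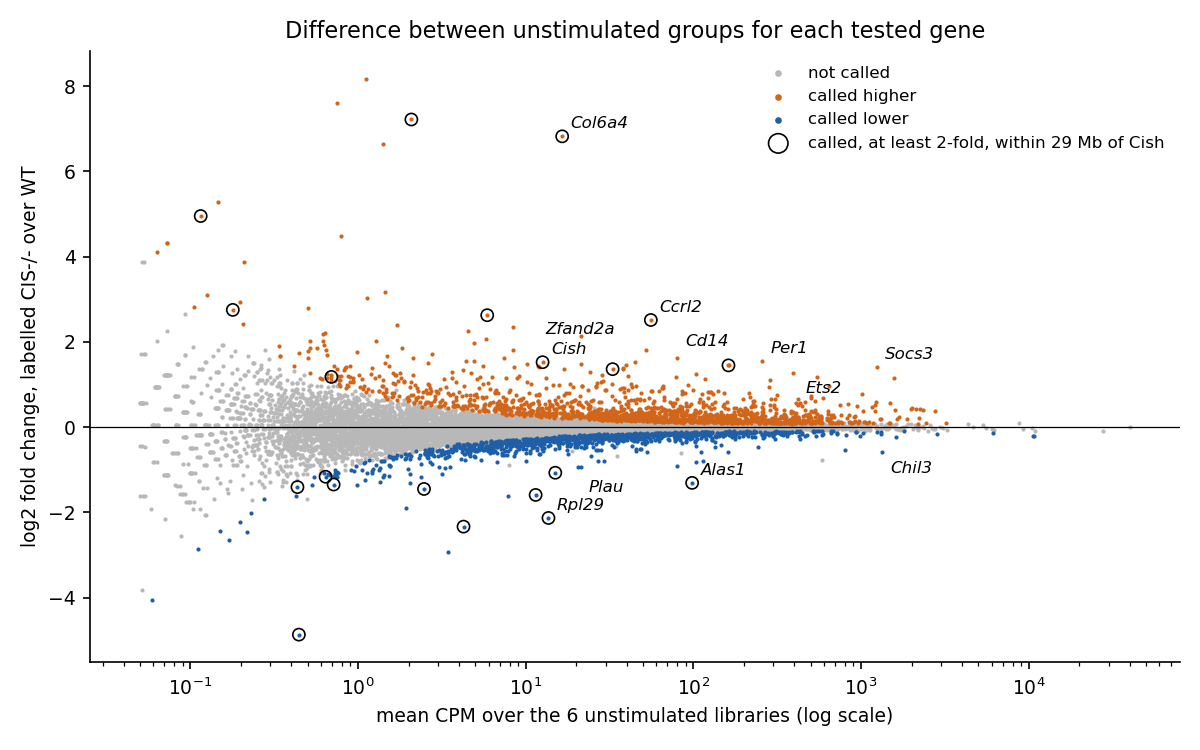
Each dot is a tested gene, with its mean CPM over the 6 unstimulated libraries on a log axis and its log2 fold change of CIS-/- over WT on the vertical axis; orange genes were called higher, blue genes lower, grey genes were not called, and black rings mark called genes within 29 Mb of Cish that differ at least 2-fold. The 154 higher genes of at least 2-fold outnumber the 48 lower ones.

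The SOCS family rose together with Cish in part. Of 8 members tested, 3 were higher and none lower, the median being 0.07. Socs3, the inhibitor of gp130 and G-CSF receptor signalling, was the most abundant member in both groups, per kilobase of exon as well. It measured 673, 680.5 and 679.7 CPM in WT and 1809.9, 1812 and 1778 CPM in CIS-/-, which is 2.66-fold higher (log2 1.41 ± 0.03, edgeR adjusted p = 6.49e-44). Socs1, the inhibitor of interferon signalling, rose from 12.04, 12.3 and 13.5 CPM to 21.2, 21.7 and 21.2 CPM (log2 0.76 ± 0.08, adjusted p = 1.73e-12). Neither gene's groups overlapped. Socs4, Socs5, Socs6 and Socs7 lay between -0.13 and 0.14 with adjusted p from 0.404 to 0.997 and overlapping groups, and Socs2 had no count in any of the 6 libraries.

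Upstream of the SOCS genes, the changes in receptors and kinases of JAK-STAT signalling were mostly small in size. Of 33 members tested, 8 were higher (24.2%) and 2 lower (6.06%), against 12.9% and 9.41% of all genes tested. The median was 0.01 and the range -0.16 to 0.81. The largest change was in Il10ra, a chain of the IL-10 receptor, with 35.7, 36.1 and 34.2 CPM in WT and 61.1, 61.4 and 62.9 CPM in CIS-/- (log2 0.81 ± 0.05). Stat3 was higher by 0.29 ± 0.03, and Csf2ra, the ligand-binding chain of the GM-CSF receptor, by 0.13 ± 0.03. Ptpn6, a phosphatase that damps cytokine receptor signals, was lower by -0.16 ± 0.03.

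Known targets of STAT3 and STAT5 were higher in part. Of 21 tested, 13 were higher and none lower, and their median was 0.19. Pim1, a survival kinase induced by STAT5, had 372, 386 and 380.4 CPM in WT against 625, 635 and 629 CPM in CIS-/- (log2 0.73 ± 0.03, edgeR adjusted p = 5.15e-29). Cdkn1a, which encodes the cell-cycle inhibitor p21, went from 2.51, 2.01 and 2.15 CPM to 8.63, 10.7 and 8.70 CPM (log2 2.07 ± 0.14). Osm, a cytokine of the IL-6 family, was higher by 0.61 ± 0.03, and the anti-apoptotic gene Mcl1 by 0.44 ± 0.03. None of these 4 genes had overlapping groups, which also held for 37.8% of all genes tested.

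NF-kB signalling is held in check by proteins whose genes NF-kB itself switches on. Of 24 genes for NF-kB subunits and their inhibitors, 12 were higher and 1 was lower, the median being 0.13. The inhibitors Tnfaip3 and Nfkbia had the largest changes among those named here. Nfkbia, which encodes IkB-alpha, measured 154, 156 and 156 CPM in WT and 268, 278 and 267 CPM in CIS-/- (log2 0.80 ± 0.04, edgeR adjusted p = 5.36e-25). Tnfaip3, which encodes the ubiquitin-editing enzyme A20, rose from 41.1, 37.9 and 40.4 CPM to 69.2, 74.4 and 73.6 CPM (log2 0.86 ± 0.05). Nfkbiz, a nuclear co-regulator, was higher by 0.67 ± 0.03 and Bcl3, another nuclear member of the inhibitor family, by 0.58 ± 0.04. Among the subunits, Rel was higher by 0.60 ± 0.05 and Nfkb2 by 0.48 ± 0.05.

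The immediate-early genes, which cells transcribe within minutes of a stimulus without new protein synthesis, showed the most frequent increase of the 33 gene lists. In the AP-1 family of leucine-zipper factors, 10 of 13 tested members were higher, 1 was lower, and the median was 0.50. Maff, a small Maf protein, rose from 1.28, 1.21 and 2.09 CPM to 8.39, 6.91 and 7.28 CPM (log2 2.26 ± 0.16, edgeR adjusted p = 8.17e-19). Atf3, a stress-induced factor, rose from 26.8, 22.97 and 24.5 CPM to 59.7, 54.6 and 56.6 CPM (log2 1.20 ± 0.05). The abundant member Junb went from 1687, 1735 and 1712 CPM to 2354, 2351 and 2288 CPM (log2 0.45 ± 0.03). Fos went the other way, and was the only member called lower, with 1381, 1397 and 1387 CPM in WT against 1244, 1251 and 1242 CPM in CIS-/- (log2 -0.16 ± 0.03); it was named after its values were seen.

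Of 28 other immediate-early genes, 22 were higher and none lower, the median being 0.44. Per1, a circadian repressor that also responds acutely to glucocorticoid and cyclic AMP, measured 131, 129 and 131 CPM in WT and 383, 384 and 385 CPM in CIS-/- (log2 1.56 ± 0.04, edgeR adjusted p = 1.08e-40). Plk2, a kinase induced by serum, rose from 20.8, 20.9 and 21.6 CPM to 54.2, 57.0 and 53.9 CPM. Egr1, a zinc-finger factor, rose from 60.1, 64.3 and 60.9 CPM to 119.8, 125 and 124 CPM (log2 0.99 ± 0.04), and its relative Egr2 from 4.399, 3.29 and 3.49 CPM to 13.01, 12.7 and 13.7 CPM (log2 1.82 ± 0.11). Ier3 was higher by 0.83 ± 0.04 and Plk3 by 0.71 ± 0.04. Feedback genes of the MAP kinase pathway were higher in 7 of 14 cases and lower in 1, with a median of 0.33. Only 6 of the 14 reached 10 CPM in a group mean, so this median rests partly on genes with few reads. Dusp5, a nuclear ERK phosphatase, was higher by 0.87 ± 0.05 and Dusp1 by 0.25 ± 0.03, while Dusp7, the member called lower, lies close to Cish.

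**Figure D2:**
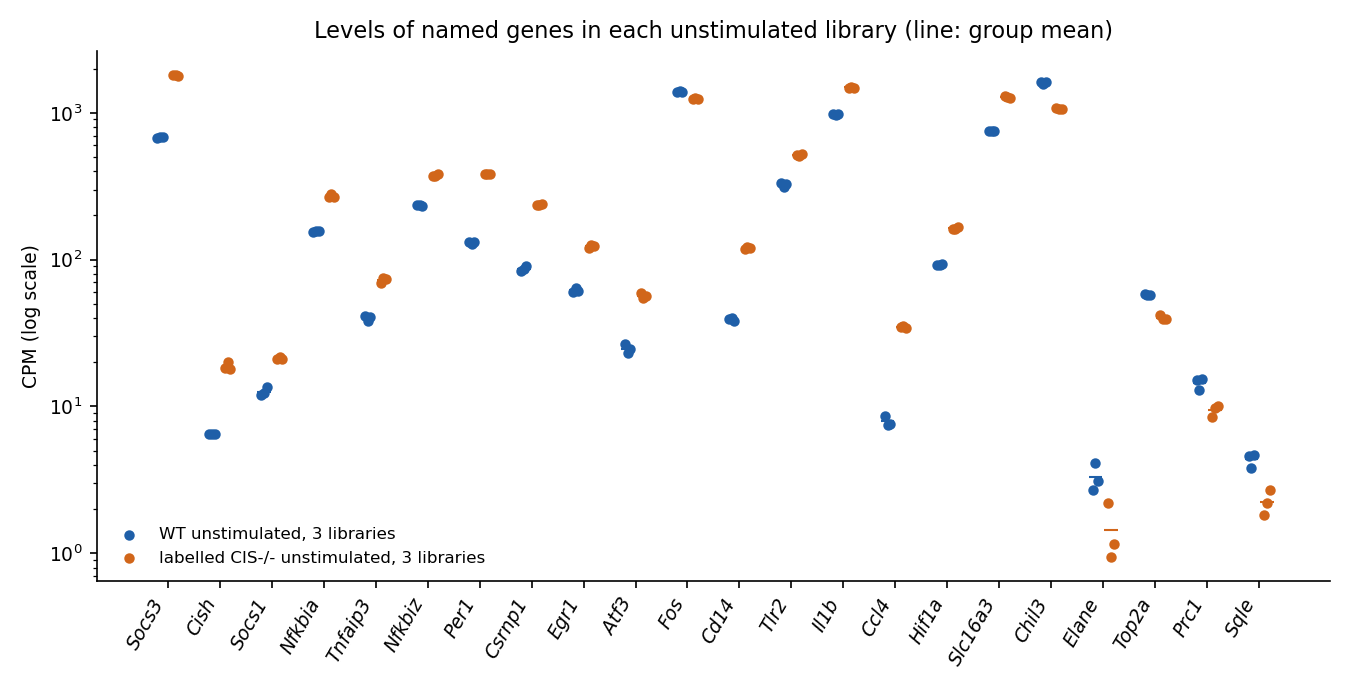
Dots give the CPM of each unstimulated library on a log axis for named genes, blue for WT and orange for CIS-/-, and short lines give the mean of each group of 3. For Socs3 the WT libraries sit near 678 CPM and the CIS-/- libraries near 1800.2 CPM.

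Promoters were searched for Cish, Socs3, Tnfaip3, Nfkbia and Maff, picked from the SOCS, NF-kB and AP-1 lists for their increases. Other members of these lists were not called, so the choice does not show that the lists moved together. The windows are the 250 bases before each RefSeq transcript start (build GRCm38.p6). They were searched on both strands for the STAT motif TTCNNNGAA, the AP-1 motif TGANTCA, the cyclic AMP response element (CRE) TGACGTCA and the NF-kB consensus. Bases that a GENCODE exon covers are left out of the print, and capitals mark the matches. Tnfaip3 and Maff were named by rule as the genes of the NF-kB and AP-1 lists with the largest increase, and Nfkbia and Socs3 were added after their values were seen. The Cish window, which a longer Cish exon covers whole, held none of the 4 motifs. Neither did the window of another Tnfaip3 start, chr10:19011964-19012213, nor that of another Maff start, chr15:79346371-79346620. The Cish window, chr9:107296409-107296658, lies past the gene start at 107296026. The bases before that gene start were not searched, so the absence of motifs holds for this window only. Only windows with a match are printed.
Tnfaip3, chr10:19015411-19015547, minus strand: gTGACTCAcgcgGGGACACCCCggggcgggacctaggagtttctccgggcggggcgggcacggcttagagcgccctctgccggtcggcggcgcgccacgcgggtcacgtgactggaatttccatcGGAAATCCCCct
Nfkbia, chr12:55492648-55492897, minus strand: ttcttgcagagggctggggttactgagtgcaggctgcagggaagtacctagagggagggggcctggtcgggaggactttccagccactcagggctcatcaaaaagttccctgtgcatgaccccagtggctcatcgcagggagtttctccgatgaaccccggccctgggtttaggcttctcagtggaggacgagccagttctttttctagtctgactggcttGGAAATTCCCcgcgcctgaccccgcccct
Maff, chr15:79347270-79347519, plus strand: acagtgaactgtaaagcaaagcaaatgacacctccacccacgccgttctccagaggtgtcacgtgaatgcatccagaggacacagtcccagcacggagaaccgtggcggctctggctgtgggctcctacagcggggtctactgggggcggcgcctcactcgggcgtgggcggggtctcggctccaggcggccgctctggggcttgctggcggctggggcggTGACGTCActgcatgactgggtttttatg
Maff, chr15:79348247-79348401, plus strand: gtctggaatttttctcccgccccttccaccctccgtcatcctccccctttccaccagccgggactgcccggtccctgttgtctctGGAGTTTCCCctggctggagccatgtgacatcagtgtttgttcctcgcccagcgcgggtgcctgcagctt
Socs3, chr11:117969452-117969616, minus strand: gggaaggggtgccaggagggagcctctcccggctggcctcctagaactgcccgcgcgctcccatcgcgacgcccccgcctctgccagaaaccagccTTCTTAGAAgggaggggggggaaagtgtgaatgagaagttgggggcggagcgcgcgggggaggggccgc
In Tnfaip3 the AP-1 match begins 136 bases before the transcript start and the NF-kB matches begin 125 and 12 bases before it. In Nfkbia the NF-kB match begins 29 bases before the start, in Maff the CRE begins 29 bases before one start and the NF-kB match 70 bases before another, and in Socs3 the STAT match begins 154 bases before a RefSeq start that GENCODE does not share. Among windows of all tested genes, 4.53% held the NF-kB consensus, against 5.96% for genes called higher and 3.05% for genes called lower. The CRE was in 2.72% of windows of tested genes, in 4.89% for genes called higher and in 0.987% for genes called lower. For the STAT motif these shares were 5.98%, 6.43% and 6.73%, and for AP-1 they were 4.64%, 5.43% and 4.31%. The shares are descriptions of letters in these windows and say nothing of binding.

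Pattern receptors and secreted mediators of inflammation were also higher in part. Of 26 genes of Toll-like and interleukin-1 receptor signalling, 9 were higher and 2 lower, the median being 0.11. Cd14, the co-receptor for lipopolysaccharide, rose from 39.3, 40.0 and 38.1 CPM to 118, 121 and 120.4 CPM (log2 1.62 ± 0.05, edgeR adjusted p = 9.46e-38). Tlr2, a receptor for bacterial lipopeptides, rose from 333, 314 and 326 CPM to 512, 509.6 and 526 CPM (log2 0.67 ± 0.03). Il1r2, the decoy receptor for IL-1, rose from 187, 200.3 and 192 CPM to 372, 371 and 378 CPM (log2 0.95 ± 0.04). Il1rap and Il18rap, signalling chains of the IL-1 and IL-18 receptors, were the 2 lower members, at -0.33 ± 0.05 and -0.27 ± 0.03.

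Of 10 chemokine genes tested, 5 were higher and none lower, the median being 1.03. Only 4 of the 10 reached 10 CPM in a group mean, so the median rests partly on genes with few reads. Ccl6, the most abundant, averaged 1463 CPM in WT and 1430 CPM in CIS-/-. All 17 members of the list summed to 1651 CPM in WT and 1755 CPM in CIS-/- on average. Ccl4, an attractant of monocytes and lymphocytes, measured 8.55, 7.52 and 7.62 CPM in WT and 34.9, 35.3 and 34.1 CPM in CIS-/- (log2 2.14 ± 0.08, edgeR adjusted p = 5.29e-27). Ccl3, its neighbour and relative, rose from 16.9, 16.2 and 19.3 CPM to 36.2, 33.97 and 37.2 CPM. Cxcl2, the neutrophil attractant that acts through CXCR2, was higher by 0.66 ± 0.05 and its low-level paralog Cxcl3 by 2.39 ± 0.26. Among 22 cytokine and growth factor genes, 9 were higher and 3 lower, the median being 0.33. Il1b, abundant in resting neutrophils, went from 981, 973 and 987 CPM to 1485, 1492 and 1482 CPM (log2 0.60 ± 0.03). Csf1 was higher by 0.58 ± 0.05 and Il15 by 0.62 ± 0.05.

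Receptors for chemoattractants and adhesion molecules did not move as a group. Of 31 tested, 6 were higher and 9 lower, with a median close to 0. C5ar1, the main receptor for complement C5a, was higher by 0.27 ± 0.03, and its relative C5ar2 lower by -0.27 ± 0.04. Cxcr4, which retains neutrophils in the marrow, fell from 468, 456 and 454 CPM to 395, 395 and 397 CPM (log2 -0.21 ± 0.04, edgeR adjusted p = 3.16e-06). Cxcr2, which draws them out, was higher by 0.08 ± 0.03, and that call was lost when any of the 6 libraries was left out and with total library sizes.

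Zfand2a, an arsenite-inducible regulator of the proteasome, measured 22.5, 23.7 and 22.9 CPM in WT and 76.9, 79.0 and 85.5 CPM in CIS-/- (log2 1.80 ± 0.05, edgeR adjusted p = 2.19e-36). Of 25 heat-shock proteins and cochaperones, 11 were higher and 1 lower, the median being 0.21. Hspa8, the constitutive HSP70, rose from 232, 236 and 239.9 CPM to 342, 339 and 330.2 CPM, and its cochaperone Dnaja1 was higher by 0.80 ± 0.06. Of 23 genes of the unfolded-protein and integrated stress response, 10 were higher and 1 lower, the median being 0.14. Trib1, a pseudokinase that promotes the breakdown of C/EBP-alpha, was higher by 0.69 ± 0.03, and Slc7a11, the cystine importer, rose from 63.8, 60.5 and 59.9 CPM to 141, 144 and 153 CPM. Among 23 iron, heme and antioxidant genes, 10 were higher and 3 lower. The ferritin heavy chain Fth1 was higher by 0.43 ± 0.03 and thioredoxin reductase Txnrd1 by 0.84 ± 0.04.

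Glycolysis and hypoxia genes were higher in 14 of 32 cases and lower in 2, with a median of 0.09. Hif1a, the oxygen-sensitive factor, rose from 91.8, 92.0 and 93.2 CPM to 161, 162 and 166 CPM (log2 0.82 ± 0.04, edgeR adjusted p = 1.84e-24). The lactate exporter Slc16a3 went from 750.2, 752 and 750.1 CPM to 1306, 1278 and 1259 CPM, and the glucose transporter Slc2a1 was higher by 0.78 ± 0.04. Hk2, which encodes hexokinase 2, was lower by -0.30 ± 0.04. Transcription factors of myeloid cells were higher in 8 of 19 cases and lower in 2. Ets2 had the largest change of them, from 231, 224 and 228 CPM to 550.4, 556 and 555 CPM (log2 1.28 ± 0.03, adjusted p = 1.55e-39), and Cebpb, a driver of emergency granulopoiesis, was higher by 0.55 ± 0.07.

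**Figure D3:**
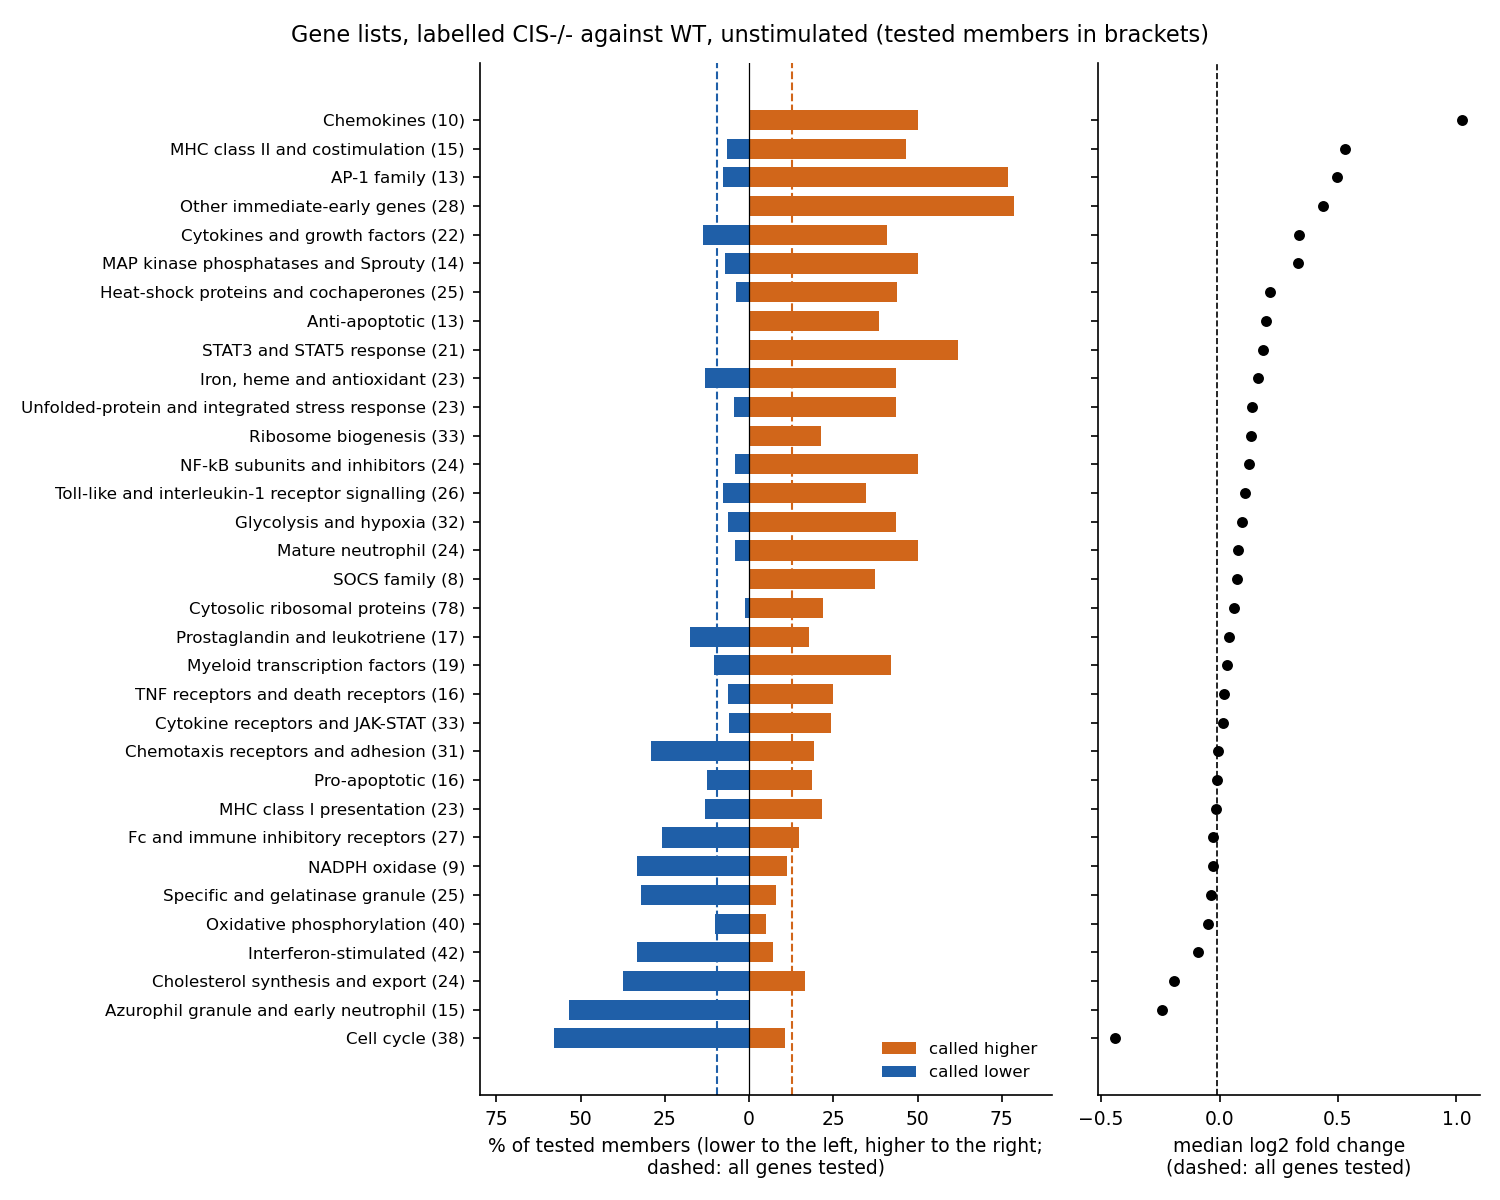
Bars give, for each of 33 gene lists, the percentage of tested members called higher (orange, to the right) and lower (blue, to the left), with dashed lines at 12.9% and 9.41% for all genes tested; dots give each list's median log2 fold change, with the number of tested members in brackets. Immediate-early genes and the AP-1 family have the longest orange bars, and cell cycle and azurophil granule genes have the longest blue bars.

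Many genes of dividing and granule-making precursors were lower. Of 38 cell-cycle genes, 22 were lower and 4 higher, and their median was -0.44. Top2a, the topoisomerase of dividing cells, measured 58.0, 57.5 and 57.6 CPM in WT and 41.9, 39.5 and 39.4 CPM in CIS-/- (log2 -0.52 ± 0.06, edgeR adjusted p = 4.1e-10). Mki67, the proliferation marker, fell from 78.1, 77.0 and 82.8 CPM to 63.1, 65.5 and 63.5 CPM, and the spindle-midzone gene Prc1 from 15.03, 12.96 and 15.4 CPM to 8.51, 9.82 and 10.0 CPM. The higher members did not follow them: Mcm4, a subunit of the replicative helicase, was up by 0.58 ± 0.09, the centromeric histone Cenpa by 0.34 ± 0.06 and the kinesin Kif23 by 0.30 ± 0.05.

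Of 15 azurophil granule and early neutrophil genes, 8 were lower and none higher, with a median of -0.24. Serpinb1a, an inhibitor of neutrophil proteases, measured 289, 279.9 and 286 CPM in WT and 241, 233 and 249.9 CPM in CIS-/- (log2 -0.24 ± 0.04, edgeR adjusted p = 1.42e-07). Elane, which encodes neutrophil elastase, was at 2.69, 4.10 and 3.11 CPM against 2.19, 0.951 and 1.16 CPM. Of 25 specific and gelatinase granule genes, 8 were lower and 2 higher, with a median of -0.04. Chil3, a chitinase-like granule protein, fell from 1628, 1579.8 and 1609 CPM to 1079.8, 1067 and 1062 CPM (log2 -0.59 ± 0.04, adjusted p = 3.41e-18), and lactoferrin, Ltf, was lower by -0.22 ± 0.03. Adam8, a protease of the mature cell surface, was higher by 0.44 ± 0.03. Among 24 genes that mark mature neutrophils 12 were higher and 1 lower, the median being 0.08. Clec4e, a receptor for fungal and mycobacterial glycolipids, was higher by 0.56 ± 0.03. The NADPH oxidase had 1 higher and 3 lower genes of 9, and its catalytic subunit Cybb fell from 1805, 1732 and 1731 CPM to 1513, 1468 and 1486 CPM.

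Of 15 genes for MHC class II and costimulation, 7 were higher and 1 lower, the median being 0.53. Only 6 of the 15 reached 10 CPM in a group mean, so the median rests partly on genes with few reads. All 17 members of that list summed to 195 CPM in WT and 240 CPM in CIS-/- on average. Cd80, a ligand of CD28, rose from 9.47, 10.2 and 9.66 CPM to 19.8, 20.3 and 18.0 CPM (log2 0.99 ± 0.08, edgeR adjusted p = 3.02e-15), and Cd274, which encodes PD-L1, was higher by 0.71 ± 0.07. MHC class I genes were higher in 5 of 23 cases and lower in 3, and 2 to 3 were higher under 5 of the alternative analyses. Among 42 interferon-stimulated genes 14 were lower and 3 higher, with a median of -0.09. Slfn5 was lower by -0.29 ± 0.06 and Usp18, which restrains interferon signalling, by -0.39 ± 0.10, though the call of Usp18 was lost without WT replicate 2 or without CIS-/- replicate 1. The count of 14 was 8 or 9 when any library except WT replicate 1 was left out, and 7 without the low-count filter.

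Cholesterol genes moved both ways. Of 24 tested, 9 were lower and 4 higher, with a median of -0.19. The synthesis enzymes Sqle, Fdft1 and Hmgcs1 were lower by -0.97 ± 0.17, -0.67 ± 0.11 and -0.46 ± 0.06, while the exporter Abca1 was higher by 0.54 ± 0.10. Nuclear genes of the respiratory chain were higher in 2 of 40 cases (5.0%, against 12.9% of all genes) and lower in 4 (10.0%, against 9.41%), with a median of -0.05. Of 6 tested genes of the mitochondrial genome 5 were lower and none higher, with a median of -0.22, and the list summed to 637 to 680.3 CPM in WT and 559.8 to 580.5 CPM in CIS-/-. Ribosomal protein genes were higher in 17 of 78 cases (21.8%, against 12.9% of all genes) with a median of 0.06. The count was 8 with total library sizes, 6 without WT replicate 1, 8 without WT replicate 3 or without CIS-/- replicate 1, and 9 without CIS-/- replicate 2. Rpl29 was the only one lower.

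Survival genes were higher where they changed. Of 13 anti-apoptotic genes, 5 were higher and none lower, the median being 0.20, among them Birc3 by 0.36 ± 0.04. Pro-apoptotic genes were higher in 3 of 16 cases (18.8%) and lower in 2 (12.5%), near the 12.9% and 9.41% of all genes tested. Bcl2l11, which encodes BIM, rose from 26.9, 28.1 and 24.96 CPM to 38.4, 42.6 and 42.5 CPM (log2 0.63 ± 0.06, edgeR adjusted p = 2.22e-14), and Bmf by 0.64 ± 0.06. Both oppose survival, so genes of opposite function were higher side by side. Ptgs2, the inducible cyclooxygenase, was higher by 0.48 ± 0.04 and Lta4h, the leukotriene B4 synthase, lower by -0.22 ± 0.04. Fc and immune inhibitory receptors were higher in 4 of 27 cases and lower in 7, with Clec2d, a C-type lectin, at -0.79 ± 0.07.

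The genes with the largest differences included many near Cish; no test of place was made. Within 29 Mb of Cish on chromosome 9, 89 of 264 tested genes were called (33.7%, against 22.3% of all genes), 48 higher and 41 lower, and 20 differed by at least 2-fold, 10 in each direction. Among the 15 largest increases that met the naming rule 4 lay in this window, and among the 15 largest decreases 8 did. All 4 decreases of at least 2-fold that met the rule, Rpl29, Tma7, Alas1 and Dusp7, lay there. Without the rule's limits on level, overlap and name, 48 genes were called at least 2-fold lower, 10 inside the window and 38 outside it.

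Col6a4 (chromosome 9, 105989454 to 106096783), a collagen VI chain gene, was at 0.183, 0.403 and 0.268 CPM in WT and at 31.3, 33.5 and 33.3 CPM in CIS-/- (log2 6.82 ± 0.17, edgeR adjusted p = 5.79e-40). Ccrl2 (111054486 to 111057519), an atypical receptor for chemerin, rose from 18.0, 15.04 and 16.6 CPM to 96.9, 91.1 and 96.6 CPM (log2 2.52 ± 0.05). Csrnp1 (119971163 to 119984658), an immediate-early nuclear protein, rose from 83.9, 86.1 and 89.9 CPM to 236, 236 and 239 CPM. Alas1 (106233455 to 106248654), the first enzyme of heme synthesis outside red cells, fell from 138, 147 and 135 CPM to 59.0, 56.0 and 54.4 CPM (log2 -1.31 ± 0.05, adjusted p = 9.71e-33). Rpl29 (106429454 to 106431568) fell from 22.4, 22.9 and 21.5 CPM to 4.74, 5.51 and 4.96 CPM (log2 -2.13 ± 0.10). None of these groups overlapped. Rpl29 and Tma7 have near-identical processed copies that can share reads, and Col6a4, Csrnp1, Alas1, Tma7 and, on other chromosomes, Atf3 and Cebpb overlap other annotated genes, so their levels are uncertain to that extent. Without the 264 genes of the window 2489 genes were called.

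**Figure D4:**
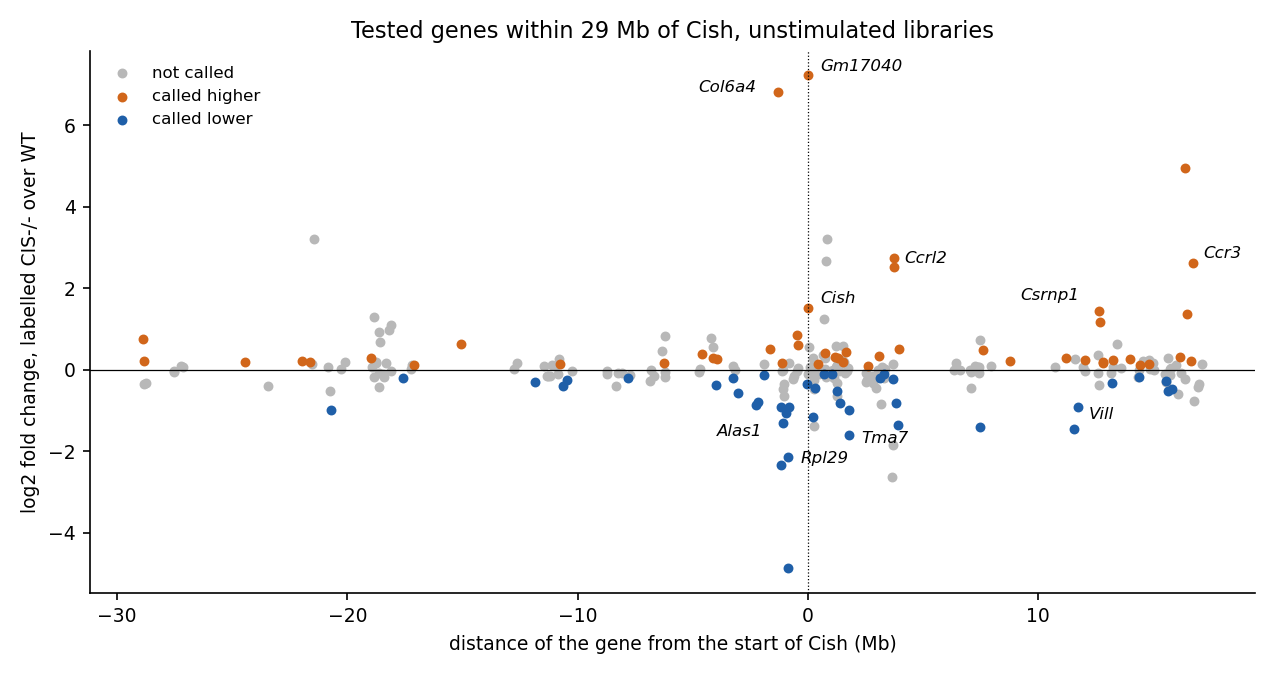
Dots are the tested genes within 29 Mb of Cish, placed by their distance in Mb from the start of Cish, with the log2 fold change of CIS-/- over WT on the vertical axis (orange called higher, blue called lower, grey not called). The chromosome ends about 17 Mb past Cish, and differences of both signs, such as Rpl29 at -2.13 and Col6a4 at 6.82, lie close to it.

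Red cell genes were the cell type markers that differed as a list. All 6 erythroid markers tested were higher, from 1.33 to 1.62 with a median of 1.45, and their list summed to between 44.8 and 47.2 CPM in WT and between 122.8 and 126.5 CPM in CIS-/-. The ratio of 2.70 stayed between 2.66 and 2.73 when any of the 6 libraries was left out. The beta-globin gene Hbb-bs measured 20.5, 20.8 and 22.5 CPM in WT and 57.7, 58.0 and 59.2 CPM in CIS-/- (log2 1.45 ± 0.14, edgeR adjusted p = 4.44e-06), and the anion exchanger Slc4a1 0.917, 1.28 and 0.966 CPM against 3.28, 3.42 and 2.96 CPM. Paired globin genes are near-identical, so reads may be split between Hba-a1 and Hba-a2 and between Hbb-bs and Hbb-bt. The markers Klf1 and Car1, of red cell precursors, had at most 2 reads in any of the 6 libraries. The part of red cell RNA in other differences was not tested.

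Markers of other cells showed few differences. Of the monocyte and macrophage list 6 of 12 were tested and none was called, with sums of 765 to 804 CPM in WT and 753 to 787 CPM in CIS-/-. That sum came mostly from Ly6c2 and Csf1r, while Cx3cr1, Ms4a4c and Mrc1 had at most 6 reads in any of the 6 libraries. B and plasma cell, T and NK cell, platelet, stromal and progenitor markers gave no called gene, and the sum of none of these 5 lists passed 38.5 CPM. Of the B and plasma cell list only 2 of 9 members were tested, and its sum was 2.28 to 3.33 CPM in WT and 3.67 to 3.99 CPM in CIS-/-, with no overlap. Besides the red cell and neutrophil lists, the markers called were Ccr3 and Ccr9, both on chromosome 9 inside the window around Cish. Ccr9 had very few reads, with means of 0 CPM in WT and 0.23 CPM in CIS-/- (log2 4.95 ± 1.29). Ccr3, the eotaxin receptor of eosinophils, rose from 1.16, 1.21 and 2.42 CPM to 9.61, 11.0 and 9.98 CPM, whereas the eosinophil granule genes Epx and Prg2 had log2 fold changes of -0.37 ± 0.31 and -0.26 ± 0.20 that were not called (adjusted p = 0.47 and 0.418). Of 12 neutrophil markers 1 was higher and 4 lower, with sums of 120273 to 121483 CPM in WT and 114797 to 118707 CPM in CIS-/-. The 4 lower ones were Ltf, Ngp, Lcn2 and Elane, all granule genes, and the call of Ngp was lost without CIS-/- replicate 3.

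The genotype difference was then set beside that in cells kept with GM-CSF. Of the 18 libraries, replicate 1 of CIS-/- at 24 h stood apart from its group: its pairs had a chi-square per degree of freedom of 6.82 and 8.46, against at most 2.90 for the 16 other replicate pairs. Without it, all 2578 genes called in fresh cells kept their call and sign among 2927 called, and the interaction was called for 2138 genes at 4 h and 7466 at 24 h. The contrasts at 4 h and 24 h use other libraries than the unstimulated one, though sorted cells were split among the 3 conditions, and the labels do not tie single libraries to a sort. At 4 h 2000 genes were called (17.3%), 925 higher (8.0%) and 1075 lower (9.29%). At 24 h 8827 were called (76.3%), 4416 higher (38.2%) and 4411 lower (38.1%). The change of the genotype difference, tested as an interaction, was called for 1820 genes (15.7%) between the unstimulated cells and 4 h and for 7489 genes (64.7%) between the unstimulated cells and 24 h.

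Many of the increases in fresh cells were not called at 4 h and were called at 24 h. Of the 154 genes at least 2-fold higher in fresh CIS-/- cells, 40 were called higher at 4 h, 12 lower and 102 not, and the interaction was called for 91. At 24 h 106 of them were higher, 19 lower and 29 not called. The 154 genes were selected on the same unstimulated difference that the interaction subtracts. This selection favours a smaller difference at 4 h and an interaction call, so these counts are no separate evidence of a change. Of the 154, 31 were under 1 CPM and 76 from 1 to 10 CPM. The immediate-early list had a median of 0.44 unstimulated, 0.10 at 4 h and 1.42 at 24 h, and the AP-1 family 0.50, 0.15 and 2.28. Per1 was at 53.9 CPM in WT and 52.7 CPM in CIS-/- at 4 h (log2 -0.03 ± 0.05) and higher by 2.66 ± 0.04 at 24 h (interaction with edgeR adjusted p = 4.05e-29 and 3.86e-26). Egr1 kept its difference at 4 h, at 1.19 ± 0.07 (interaction adjusted p = 0.117). Heat-shock genes had medians of 0.21, -0.03 and 0.53.

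Some other differences were of like size before and after 4 h. The cell-cycle list had a median of -0.44 unstimulated, -0.41 at 4 h and -0.17 at 24 h, with an interaction called for 6 of 38 genes at 4 h and 11 at 24 h. Chil3 was lower by -0.60 ± 0.04 at 4 h and by -0.59 ± 0.04 at 24 h, with interaction adjusted p of 0.898 and 0.9998. The erythroid markers had medians of 1.45, 1.59 and 2.07, with an interaction called for none of 6 at 4 h by edgeR and for 3 at 24 h. Near Cish, Col6a4 was at 7.43 ± 0.28 at 4 h and Rpl29 at -2.26 ± 0.12, with interaction adjusted p of 0.685 and 0.727, and Ccrl2 was at 2.43 ± 0.05 at 4 h and 5.18 ± 0.04 at 24 h. At 24 h Col6a4 was at 3.53 ± 0.60 and Rpl29 at -2.89 ± 0.11, and edgeR called both interactions. Csrnp1 fell to 0.04 ± 0.04 at 4 h. Of 20 genes called at least 2-fold within 29 Mb of Cish, the interaction was called for 6 at 4 h and 15 at 24 h. Selection on the unstimulated difference favours such calls. An interaction that was not called does not show that the differences were equal.

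**Figure D5:**
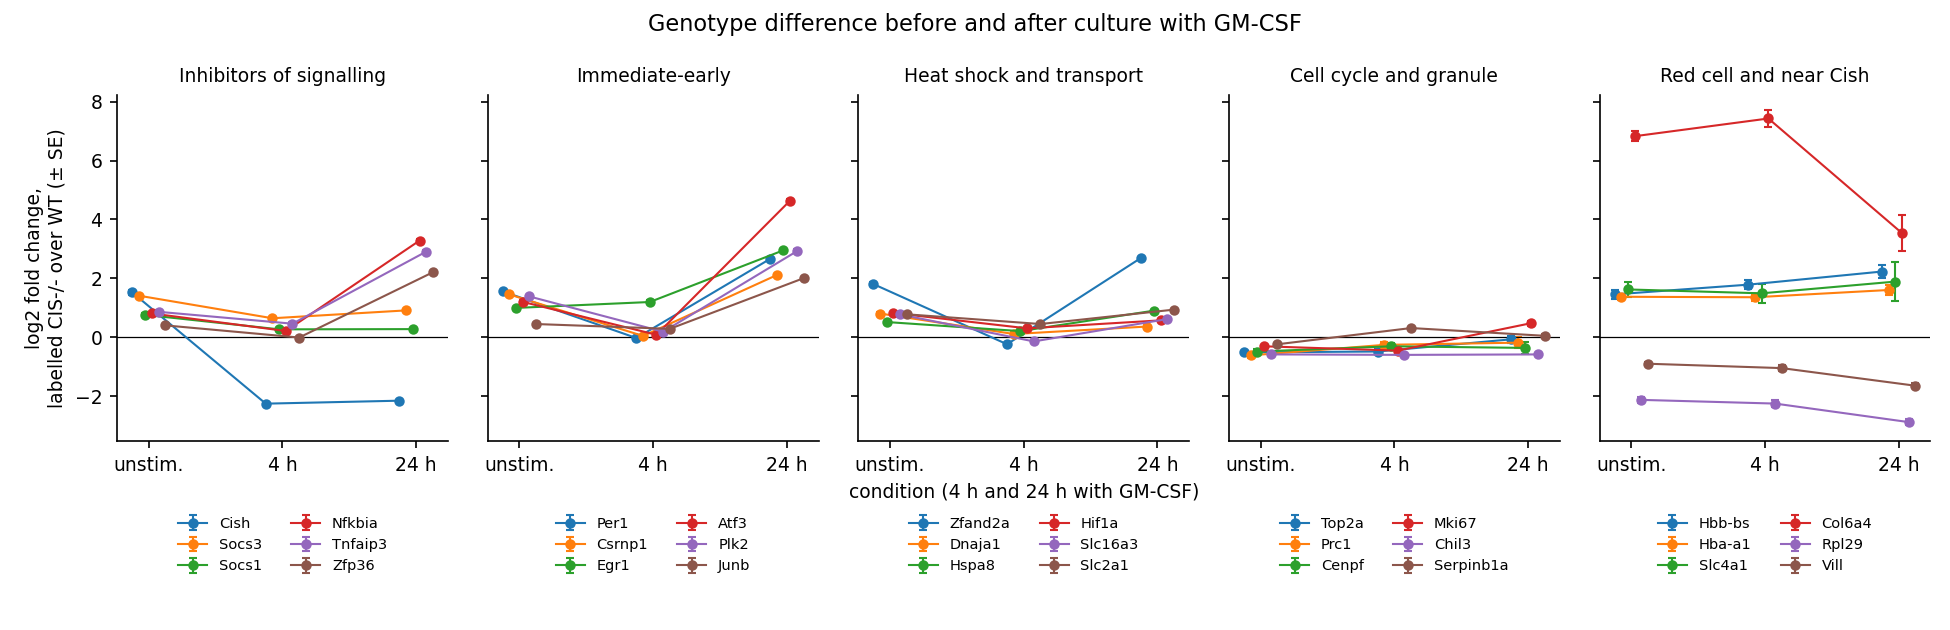
Points are log2 fold changes of CIS-/- over WT in unstimulated cells and after 4 h and 24 h with GM-CSF, with bars of 1 SE, in 5 panels by gene group; lines join the same gene and stand for no measured time course. Cish goes from 1.52 to -2.26 in the panel of inhibitors, Per1 goes from 1.56 to -0.03 and Csrnp1 from 1.45 to 0.04 at 4 h, and the cell-cycle, granule and red cell genes stay on their side of 0 at 4 h except Serpinb1a.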

How the data were processed

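RNA was extracted from sorted cells and made into libraries with a strand-keeping kit, per the labels' protocols. The deposited table holds whole-number counts per gene, made by the authors. Per the submitters' processing notes the tools were Trimmomatic, STAR and featureCounts on mm10, with no version or strand setting stated. Of 53379 gene IDs, 105 had no name in GENCODE M21 and held 0.0238% of counts. These stayed in the counts that were filtered and fitted, but could not be named among the largest differences. The 18 libraries of 6 groups were fitted together in edgeR 4.0.16 (R 4.3.3; TMM, filterByExpr, robust quasi-likelihood), which tested 11569 genes with 12 residual degrees of freedom and a common biological coefficient of variation of 3.30%. The scripts were tested on simulated data. Totals were 14378755 to 17944849 counts in the 6 unstimulated libraries and 12170524 to 22539858 over all 18. Replicate pairs differed by more than sampling noise, with chi-square per degree of freedom from 1.29 to 1.88 among unstimulated libraries and up to 8.46 over all 18, the highest in pairs with CIS-/- 24 h replicate 1. CIS-/- was contrasted with WT at each time, and the change of that difference was tested as an interaction. The times are those of the titles, since a treatment field of the labels gives another time for the longer culture.

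The genes named are Cish, the 15 largest differences each way among called genes of at least 10 CPM whose groups did not overlap, up to 6 members of each list by adjusted p, all members of lists of up to 12 genes, the 6 genes with the smallest adjusted p within 29 Mb of Cish, and, for promoters, the largest increase of the SOCS, NF-kB and AP-1 lists. Clones, predicted genes and pseudogenes were left out of the 15 each way. The comparison, the members and the lists were chosen with earlier results of these data known. The alternatives were RLE factors, total library sizes, DESeq2 1.42.0, limma-voom (limma 3.58.1), other filters, a non-robust prior, a fit of the 6 libraries alone, a replicate block and leaving out each library. A count without red cell, eosinophil and dendritic cell markers, the red cell sum without each library, and a fit without CIS-/- 24 h replicate 1 were added after seeing the data.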

Additional observations from a re-analysis of the deposited data

Results flagged for a closer look

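The genotype difference itself differed between fresh cells and cells with GM-CSF in many genes by edgeR's interaction test: 1820 genes at 4 h and 7489 genes at 24 h. Among the 31 genes named for their size or place, the interaction was called for 17 at 4 h and 25 at 24 h. Naming by the size of the unstimulated difference favours such calls, since the interaction subtracts that difference. In the following genes the interaction was called and the difference was called in the opposite direction to that of fresh cells. Cish was at 1.52 in fresh cells, at -2.26 at 4 h and at -2.16 at 24 h. Cyth1 was at -0.23 and Zfand2a at -0.24 at 4 h, after 1.46 and 1.80 in fresh cells. Plau, which encodes urokinase, was at -0.94 in fresh cells, at 0.73 at 4 h and at 3.42 at 24 h. At 24 h Alas1 was at 1.74, Clec2d at 0.42, Fdft1 at 1.49 and Lrrfip2 at 1.66, and all 4 had been lower in fresh CIS-/- cells.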

How the results depend on the processing

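Under the alternatives that kept all 6 libraries the number of genes called ran from 2085 without the low-count filter to 3323 in a fit of the 6 libraries alone. Leaving out 1 unstimulated library gave 2031 to 2141 genes, 1214 to 1297 higher and 784 to 844 lower, a Cish difference of 1.48 to 1.55, and interactions of 1584 to 1652 genes at 4 h and 7247 to 7309 at 24 h. Total library sizes gave 1660 genes lower, and a limit of 2-fold left 202. DESeq2 called 2170 genes. No gene called in the main analysis and under an alternative changed sign. The replicate numbers gave no sign of pairing: correlations of same-numbered deviations were -0.056, 0.067 and 0.039 over 5963 genes. Those of other pairs ran from -0.128 to 0.091. Deviations from a mean of 3 libraries are not independent, so this cannot show that libraries were unpaired. The replicate block was fitted to the 6 unstimulated libraries alone. It called 3296 genes, 1853 higher and 1443 lower, with Cish at 1.52, against 3323 genes in the fit of those libraries without the block. Ribosome biogenesis had 7 higher genes of 33 (21.2%, against 12.9% of all genes), and 4 without WT replicate 2. Genes with few reads were called less often, so the depth limits what can be said of them.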

Other observations

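The genes in this section were chosen after their values were seen. Several abundant genes outside the lists were higher in fresh CIS-/- cells. Thbs1, which encodes the matrix protein thrombospondin 1, measured 959.7, 965 and 981 CPM in WT and 2164, 2156 and 2184 CPM in CIS-/- (log2 1.16 ± 0.04, edgeR adjusted p = 8.27e-27), and was at -0.41 at 4 h and 2.48 at 24 h. Lmnb1, the gene of lamin B1 in the nuclear lamina, rose from 335, 333 and 329 CPM to 753, 760.5 and 749.9 CPM. Acod1, which encodes the enzyme that makes itaconate, rose from 48.7, 46.3 and 49.4 CPM to 109, 104 and 112 CPM, and was higher by 4.86 at 24 h. None of these groups overlapped. Lipg, which encodes endothelial lipase, was lower, with 5.38, 7.32 and 5.48 CPM in WT against 0.851, 0.380 and 1.10 CPM in CIS-/-.

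Among immunoglobulin genes, which were not a list, 2 low-level ones are given here beside the B and plasma cell markers, of which none was called. Ighg2b was at 0 in the 3 WT libraries and at 2.13, 2.28 and 2.25 CPM in CIS-/-. Igkc rose from 2.20, 1.88 and 2.20 CPM to 4.99, 5.45 and 4.96 CPM (log2 1.28). Ighm was not called (log2 0.06, edgeR adjusted p = 0.275).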
